A study of Arabidopsis thaliana with 9 samples.

Results

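The MIR precursors with a family number of 400 or higher are primary transcripts of mostly young Arabidopsis miRNA genes, many of them known only from the mustard family. The families MIR403, MIR408, MIR827, MIR828, MIR838 and MIR857 were left out. By this rule 74 precursors with 159 probes were taken, of 173 miRNA precursors and 5154 transcripts with 15013 probes on the array. Each precursor was read from its brightest probe, by mean processed signal over the 9 arrays. The rule uses the registered number and not a measured age: MIR2111, for example, is also found in other flowering plants.

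Seedlings of Arabidopsis thaliana were 2 weeks old, and each of 3 genotypes had 3 biological replicates on 1 array each. They were se-2, a mutant allele of SERRATE in which the labels name no other change, the double mutant cbp20 cbp80, whose alleles the labels do not name, and the Columbia wild type Col-0 (WT). All seedlings grew on solid MS medium under long days, and total RNA was labelled with Cy3 for a one-colour Agilent array. The array names no probe for SERRATE, CBP20 or CBP80, so it holds no check of the mutated genes, and no markers of seedling organs were used to check the tissue.

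A miRNA gene is transcribed by RNA polymerase II into a capped primary transcript with a hairpin. In the nucleus the Dicer enzyme DCL1, with the double-stranded RNA binding protein HYL1 and the zinc finger protein SERRATE, cuts the miRNA out of the hairpin. CBP20 and CBP80 form the nuclear cap-binding complex, hold the cap and take part in this cutting and in splicing. Plants that lack these proteins are known to hold uncut primary transcripts. Young miRNA genes often have long, well paired hairpins, low and local expression and single or no known targets, and the hairpins of some are cut by DCL4 in place of DCL1. The array measures the long transcripts and not the mature miRNAs.

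The 6 mutant arrays lay on 1 slide and each WT array on a slide of its own, so for the comparisons with WT genotype and slide cannot be told apart. A fit with the slide as a random block was run beside the main fit, and its adjusted p is called the slide-block p. Values are scaled log2 signals: from each log2 processed signal its array's 75th percentile was subtracted, taken over the 1825 probes that all 9 arrays detected. The median SD among replicate arrays was 0.0857 in se-2, 0.107 in cbp20 cbp80 and 0.544 in WT, while the main fit by limma pools it, so its errors against WT are too small for many probes. On data simulated with each genotype's own spread, 33.7% of its calls in se-2 against WT were false. A fit that gives each genotype its own spread was added after the data were seen. Between 14.6% and 24.7% of the probes were well above background on an array, and precision is limited by 3 arrays per genotype. In whole seedlings, fewer cells that transcribe a gene and less RNA per cell cannot be told apart.

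More of the young precursors were detected on all 3 arrays of a mutant than on all 3 WT arrays, and so were more of all transcripts. Of the 74 precursors, 39 (52.7%) were well above background on all 3 se-2 arrays, 32 (43.2%) on all 3 cbp20 cbp80 arrays and 24 (32.4%) on all 3 WT arrays. On no array of the genotype were 27 (36.5%) detected in se-2, 32 (43.2%) in cbp20 cbp80 and 39 (52.7%) in WT. The 24 precursors detected throughout WT were detected on all 9 arrays, and 21 (28.4%) were detected on none of them. Among the 99 other precursors, 87 (87.9%) were well above background on all 3 se-2 arrays, 82 (82.8%) on all 3 cbp20 cbp80 arrays and 41 (41.4%) on all 3 WT arrays, and 7 were detected on no array. Over all 5154 transcripts the shares on all 3 arrays were 31.8% in se-2, 27.0% in cbp20 cbp80 and 19.4% in WT. Those on no array of the genotype were 56.7% in se-2, 57.6% in cbp20 cbp80 and 52.3% in WT, and 35.0% were detected on none of the 9 arrays. The lowest scaled signal well above background lay at -6.88 to -6.80 on the se-2 arrays, -6.25 to -5.79 on the cbp20 cbp80 arrays and -6.39 to -5.62 on the WT arrays, and its part in these counts was not tested.

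**Figure D1:**
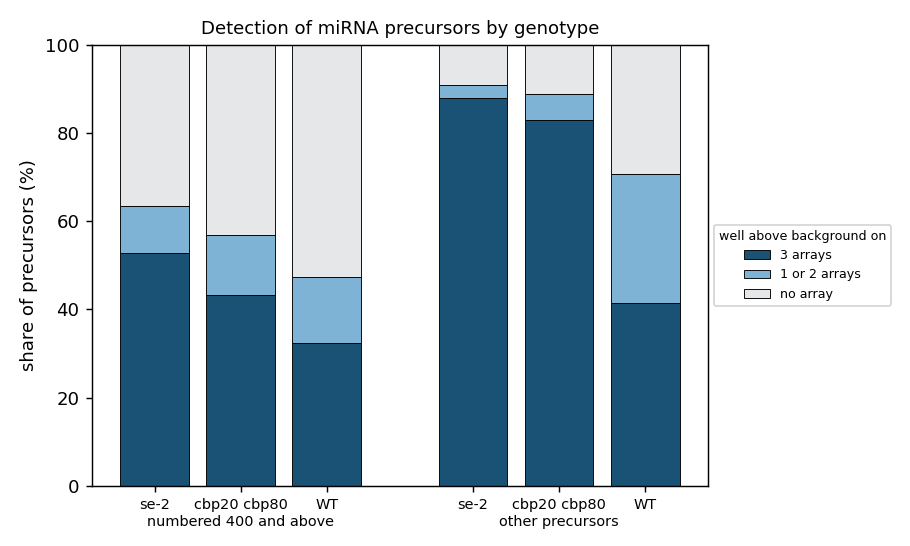
Share of precursors (%) well above background on 3 arrays, on 1 or 2 arrays or on no array of se-2, cbp20 cbp80 and WT, for the 74 precursors numbered 400 and above and the 99 others. Of the young precursors 52.7% were detected on all 3 arrays in se-2, against 32.4% in WT, and the other precursors reached 87.9% in se-2, against 41.4% in WT.

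A precursor was tested if any genotype detected its probe on all 3 arrays, as 39 of the 74 did. Of these, 15 were short of 3 WT arrays and passed through the mutants alone, so their number of higher calls is no support for a rise. A further 14 were detected on some array without meeting the filter. Among them MIR406 was detected on 2 cbp20 cbp80 arrays, MIR777 on 2 se-2 arrays, MIR842 on 1 se-2 array and MIR426 on 1 WT array. The 21 that no array detected were MIR417, MIR420, MIR447c, MIR771, MIR774, MIR776, MIR778, MIR783, MIR826, MIR832, MIR836, MIR837, MIR845b, MIR851, MIR856, MIR859, MIR864, MIR866, MIR867, MIR868 and MIR1888. They include MIR778, whose miRNA targets histone methyltransferase genes, and MIR826, whose miRNA targets the glucosinolate gene AOP2.

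The comparison of se-2 with WT asked which of these precursors depend on SERRATE. In se-2 18 of the 39 tested precursors were higher and 4 were lower, and 17 did not pass a Benjamini-Hochberg adjusted p of 0.05 by limma. Over the 1698 transcripts tested, 18.4% were called higher and 19.5% lower. The median change of the 39 was 0.68 on the log2 scale, or 0.50 with 8 precursors that no WT array detected at their bounds, against 0.013 over all transcripts tested. The 18 were MIR843, MIR779, MIR858, MIR861, MIR870, MIR2111a, MIR472, MIR825, MIR869, MIR849, MIR824, MIR773, MIR844, MIR781, MIR823, MIR400, MIR852 and MIR835, and the 4 were MIR413, MIR850, MIR846 and MIR840. The se-2 arrays lay above all WT arrays for 20 of the 39 and below them for 8, all 22 called ones among these. Over the 1698 transcripts tested they lay above for 400 and below for 443. Without WT replicate 2 the lower count in se-2 was 9, and without WT replicate 1 it was 7. With a spread for each genotype 15 of the 39 were called, 12 higher and 3 lower, against 20.3% of all transcripts tested (204 higher and 140 lower). The calls of MIR400, MIR773, MIR781, MIR835, MIR840, MIR852 and MIR858 in se-2 then ended, with adjusted p values by limma of 0.0607 to 0.556. Of the 87 other precursors tested, 78 were higher in se-2, 0 were lower (also at an unadjusted p under 0.05) and 9 did not pass, with a median of 3.53 (3.47 with 18 at their bounds). The split depended on scaling and background correction. With the 75th percentile taken over all probes 26 were higher and 2 lower, with median scaling 16 and 7, and with normexp background correction 2 and 24, while the median over all probes tested was 0.95, -0.089 and -0.73, against -0.001 in the main fit. Under normexp 13 of the 18 higher precursors had a negative value, MIR843, MIR861, MIR2111a and MIR823 among them, and MIR779, MIR824, MIR472, MIR825 and MIR844 had a positive one.

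Among the 24 young precursors detected on all 9 arrays, 6 were higher in se-2, 4 were lower and 14 did not pass. Their median was -0.32, against -0.21 over the 927 transcripts detected on all 9 arrays, of which 17.0% were higher and 26.3% lower. The share of higher calls among these 24 was 25.0%. The 41 other precursors detected on all 9 arrays had a median of 3.62, with 38 higher and 0 lower. By the slide-block p, 5 of the 39 young precursors were higher in se-2 (MIR843, MIR861, MIR2111a, MIR825 and MIR844) and 1 was lower (MIR850), against 5.59% and 1.30% of the transcripts tested.

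The comparison of cbp20 cbp80 with WT asked which precursors depend on the cap-binding complex. It uses the same WT arrays. In cbp20 cbp80 10 of the 39 precursors were higher, 4 were lower and 25 did not pass by limma. Over all transcripts tested, 24.7% were higher and 13.8% lower, so the count of 10 lay near the background. The median change was 0.22, or 0.044 with 9 at their bounds, against 0.26 over all transcripts. All 10 (MIR843, MIR773, MIR861, MIR825, MIR2111a, MIR849, MIR869, MIR852, MIR844 and MIR823) were also called higher in se-2, and of the 4 lower ones MIR413, MIR850 and MIR840 were also called lower in se-2, while MIR839 was not. Without WT replicate 2 the lower count in cbp20 cbp80 was 8. With a spread for each genotype 11 of the 39 were called, 9 higher and 2 lower, against 20.7% of all transcripts tested (254 higher and 97 lower), and the calls of MIR773, MIR839 and MIR840 ended (adjusted p 0.0601, 0.0716 and 0.112 by limma). Of the 87 other precursors, 77 were higher, 0 were lower (also at an unadjusted p under 0.05) and 10 did not pass, with a median of 2.60 (2.42 with 20 at their bounds). Of the 24 young precursors detected on all 9 arrays, 3 were higher and 3 lower, against 20.9% and 16.4% of the 927 transcripts, and their median was -0.16. With the percentile over all probes 19 of the 39 were higher and 1 lower, with median scaling 10 and 8, and with normexp 1 and 7, while the median over all probes tested was 0.77, -0.074 and -0.28, against 0.17 in the main fit. Under normexp MIR849, MIR852, MIR869 and MIR2111a had a negative value in cbp20 cbp80. By the slide-block p 4 were higher (MIR843, MIR861, MIR2111a and MIR825) and 1 lower (MIR413), against 5.01% and 0.707% of all transcripts.

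**Figure D2:**
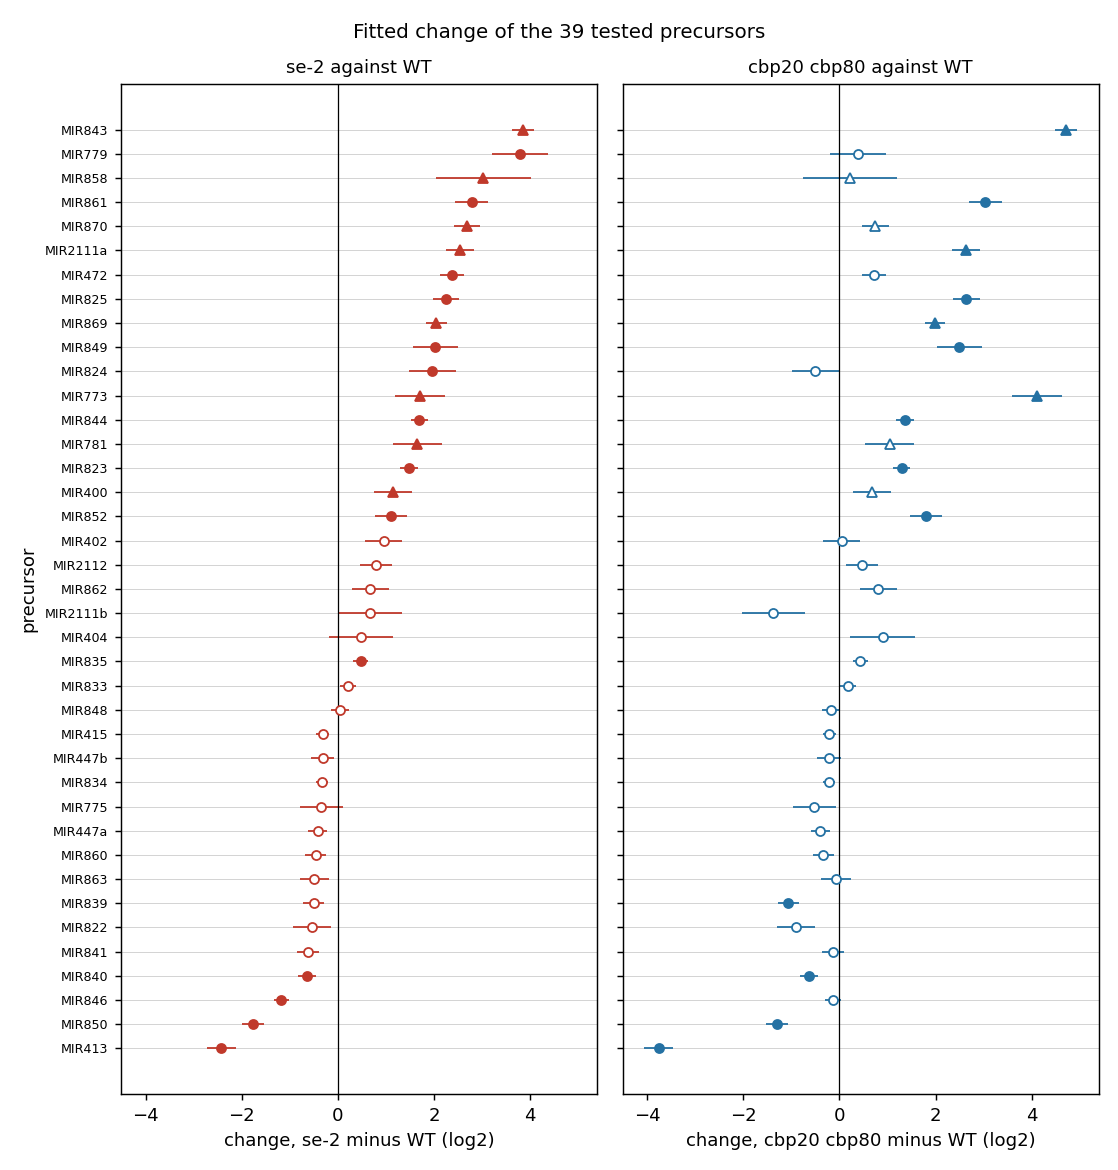
Fitted change (log2) of the 39 tested precursors in se-2 against WT (left) and in cbp20 cbp80 against WT (right), with the standard error of limma's fit as bars. Filled symbols passed an adjusted p of 0.05, open ones did not, and triangles mark precursors that no WT array detected, whose fitted change is no measured size. MIR843 lies at the top of both panels and MIR413 at the bottom of both.

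MIR843 rose in both mutants. Its scaled signal was -4.32, -4.13 and -4.30 on the se-2 arrays, -3.37, -3.33 and -3.45 on the cbp20 cbp80 arrays, and -7.81, -8.62 and -7.86 on the WT arrays. None of the WT arrays detected it, and the genotypes did not overlap. It was in se-2 at least 3.35-fold higher (adjusted p 6.68e-06 by limma, slide-block p 0.00255) and at least 6.11-fold higher in cbp20 cbp80 (5.69e-06 and 0.00193). For such bounds an undetected array counts at its lowest detected signal, or at the probe's signal where that is higher. A probe can go undetected above that lowest signal: WT replicate 1, where it was -5.62, did not detect MIR472 at -4.95. The bounds are therefore approximate, and they carry no error.

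MIR861 behaved alike, with -3.43, -3.44 and -3.47 in se-2, -3.07, -3.18 and -3.34 in cbp20 cbp80, and -6.53, -5.32 and -6.84 in WT. The second WT array was the only one of WT that detected it, and all mutant arrays lay above it. The fitted rise was 2.78 ± 0.35 (SE, n = 3 per genotype) in se-2 and 3.04 ± 0.35 in cbp20 cbp80. With the undetected WT arrays at their lowest detected signal it was 2.19, or 4.58-fold, in se-2 and 2.45, or 5.45-fold, in cbp20 cbp80. Its slide-block p was 0.0394 in se-2 and 0.0310 in cbp20 cbp80.

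The miRNA of MIR2111a targets F-box protein transcripts and is known to accumulate in phosphate starvation. Its precursor had -4.03, -4.19 and -4.07 in se-2 and -4.03, -3.96 and -4.06 in cbp20 cbp80, against -7.39, -6.27 and -6.27 in WT, where no array detected it. It was at least 3.63-fold up in se-2 and at least 3.84-fold up in cbp20 cbp80, with slide-block p values of 0.0250 and 0.0248. No WT array detected its second probe, and its se-2 signals averaged below the lowest detected signals of the WT arrays, so it gives no measurable change.

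MIR825 gives rise to miR825 and, from the other strand, to a small RNA that targets resistance genes of the TIR-NBS-LRR class. It was detected on all 9 arrays, at -2.33, -2.25 and -2.38 in se-2, -1.93, -1.84 and -2.03 in cbp20 cbp80, and -4.98, -3.87 and -4.85 in WT. The rise was 2.25 ± 0.28, or 4.75-fold, in se-2 and 2.64 ± 0.28, or 6.21-fold, in cbp20 cbp80. Its slide-block p was 0.0465 in se-2 and 0.0276 in cbp20 cbp80.

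MIR844 and MIR823 were also detected on all 9 arrays and higher in both mutants. MIR844 had -2.57, -2.47 and -2.51 in se-2, -2.85, -2.78 and -2.91 in cbp20 cbp80, and -4.53, -3.87 and -4.23 in WT. Its rise was 1.70 ± 0.18 in se-2 and 1.36 ± 0.18 in cbp20 cbp80, with slide-block p values of 0.0465 and 0.117. The miRNA of MIR823 targets CMT3, the gene of a DNA methyltransferase. MIR823 had -2.80, -2.82 and -2.80 in se-2, -3.09, -2.96 and -2.92 in cbp20 cbp80, and -4.42, -4.52 and -3.91 in WT. The rise of MIR823 was 1.48 ± 0.18, or 2.78-fold, in se-2 and 1.29 ± 0.18, or 2.45-fold, in cbp20 cbp80, with slide-block p values of 0.0807 and 0.143.

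The other 4 precursors higher in both mutants were detected on 1 WT array or none. MIR849 had -4.63, -4.67 and -4.58 in se-2, -3.97, -4.30 and -4.20 in cbp20 cbp80, and -7.89, -5.80 and -6.27 in WT, where the second array alone detected it. MIR852 had -4.88, -5.01 and -5.11 in se-2, -4.39, -4.21 and -4.33 in cbp20 cbp80, and -6.14, -5.35 and -6.85 in WT, again detected on the second WT array alone. For both, each mutant array lay above each WT array. The fitted rise of MIR849 was 2.03 ± 0.47 in se-2 and 2.50 ± 0.47 in cbp20 cbp80, which became 1.17 and 1.64 with the undetected WT arrays at their lowest detected signal. For MIR852 it was 1.11 ± 0.33 and 1.80 ± 0.33, which became 0.65 and 1.34. The slide-block p of both was 0.157 to 0.448. The call of MIR852 in se-2 ended without WT replicate 1 or any 1 of the se-2 arrays (adjusted p 0.0625 to 0.0874 by limma).

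MIR869, whose hairpin is known to be cut by DCL4, had -5.17, -4.96 and -5.06 in se-2, -4.96, -5.49 and -4.96 in cbp20 cbp80, and -7.24, -6.81 and -7.30 in WT. No WT array detected it, and it was at least 1.91-fold up in se-2 and at least 1.82-fold up in cbp20 cbp80. Its slide-block p was 0.285 in se-2 and 0.321 in cbp20 cbp80. The miRNA of MIR773 targets MET2, a DNA methyltransferase gene. MIR773 had -5.88, -5.56 and -5.94 in se-2, -3.94, -2.38 and -3.87 in cbp20 cbp80, and -7.29, -8.45 and -6.78 in WT, where it was not detected. The cbp20 cbp80 arrays were the highest and the 3 genotypes did not overlap. MIR773 was at least 1.15-fold up in se-2 and at least 6.06-fold up in cbp20 cbp80, with slide-block p values of 0.843 and 0.449. Its call in se-2 ended without WT replicate 1, WT replicate 2 or any 1 of the se-2 arrays (adjusted p 0.0526 to 0.0909 by limma).

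The 8 precursors called higher in se-2 and not in cbp20 cbp80 were MIR779, MIR858, MIR870, MIR472, MIR824, MIR781, MIR400 and MIR835, and the slide-block p of each was over 0.05. MIR779 had the largest rise in se-2 among the young precursors detected on all 9 arrays. Its values were 0.00036, 0.062 and 0.14 in se-2, -3.23, -3.19 and -3.61 in cbp20 cbp80, and -3.57, -5.19 and -2.42 in WT. The cbp20 cbp80 arrays lay within the range of WT, and the se-2 arrays lay above both. The rise in se-2 was 3.79 ± 0.58, or 13.9-fold, where the adjusted p by limma was 0.00131 and the slide-block p 0.0768, and the value in cbp20 cbp80 was 0.38 ± 0.58.

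The miRNA of MIR824 targets AGL16, a MADS-box gene of stomatal development. MIR824 had 0.36, 0.33 and 0.34 in se-2, -1.99, -2.18 and -2.20 in cbp20 cbp80, and -0.52, -2.84 and -1.51 in WT. The WT arrays spread over a wider range than the cbp20 cbp80 arrays, which lay inside it. The rise in se-2 was 1.97 ± 0.49, or 3.91-fold, and the value in cbp20 cbp80 was -0.50 ± 0.49. In se-2 the adjusted p by limma was 0.0129 and the slide-block p 0.239. Without WT replicate 2, the lowest WT array, MIR824 was lower in cbp20 cbp80, at -1.11 (adjusted p 0.0123 by limma). All 3 probes of MIR824 were higher in se-2, by 1.92 to 1.99.

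MIR472, whose miRNA targets resistance genes of the CC-NBS-LRR class, had -2.87, -2.66 and -2.82 in se-2, -4.39, -4.32 and -4.60 in cbp20 cbp80, and -4.95, -5.73 and -4.77 in WT. WT replicate 1 did not detect it, and the order of the genotypes held on every array. The rise in se-2 was 2.37 ± 0.25, or 5.15-fold (adjusted p 0.000169 by limma, slide-block p 0.0629). In cbp20 cbp80 the value was 0.71 ± 0.25 (adjusted p 0.0524 by limma), and it passed at 0.0393 without WT replicate 2 and at 0.0157 without WT replicate 3.

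MIR870 was detected on the 3 se-2 arrays alone, at -4.76, -4.68 and -4.55, against -7.07, -6.66 and -6.06 in cbp20 cbp80 and -6.98, -7.48 and -7.58 in WT. It was in se-2 at least 2.52-fold higher than in WT (adjusted p 0.000142 by limma, slide-block p 0.369). Neither cbp20 cbp80 nor WT detected it, so no change between them can be given. The miRNA of MIR858 targets MYB genes of flavonoid synthesis. MIR858 had -4.23, -4.20 and -4.22 in se-2, -8.56, -4.42 and -8.09 in cbp20 cbp80, and -6.53, -7.04 and -8.17 in WT. It was detected on the 3 se-2 arrays and on cbp20 cbp80 replicate 2. It was in se-2 at least 3.43-fold higher than in WT, with an adjusted p of 0.0388 by limma. Leaving out any 1 of the se-2 or WT arrays gave 0.0545 to 0.0999, and the slide-block p was 0.905. The second probe of MIR858 did not share the high value of cbp20 cbp80 replicate 2, with -8.55, -6.97 and -8.09 there, where it was not detected. No WT array detected that probe either, and its rise in se-2 against WT was at least 3.13-fold (adjusted p 0.00242 by limma).

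MIR781, MIR400 and MIR835 passed with little margin in se-2. No WT array detected MIR781 or MIR400. In se-2 MIR781 was higher by a factor of at least 1.41 and MIR400 by at least 1.75. The miRNA of MIR400, which lies within a protein-coding locus, targets transcripts of pentatricopeptide repeat proteins. MIR835, detected on all 9 arrays, rose by 0.47 ± 0.16. Their adjusted p values by limma in se-2 were 0.0322, 0.0490 and 0.0407. Leaving out any 1 of the se-2 arrays ended each of these calls, with adjusted p values by limma of 0.0700 to 0.122, and without WT replicate 1 that of MIR835 was 0.0608. MIR400 lost its call also without WT replicate 2 (0.0941) and replicate 3 (0.0900).

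**Figure D3:**
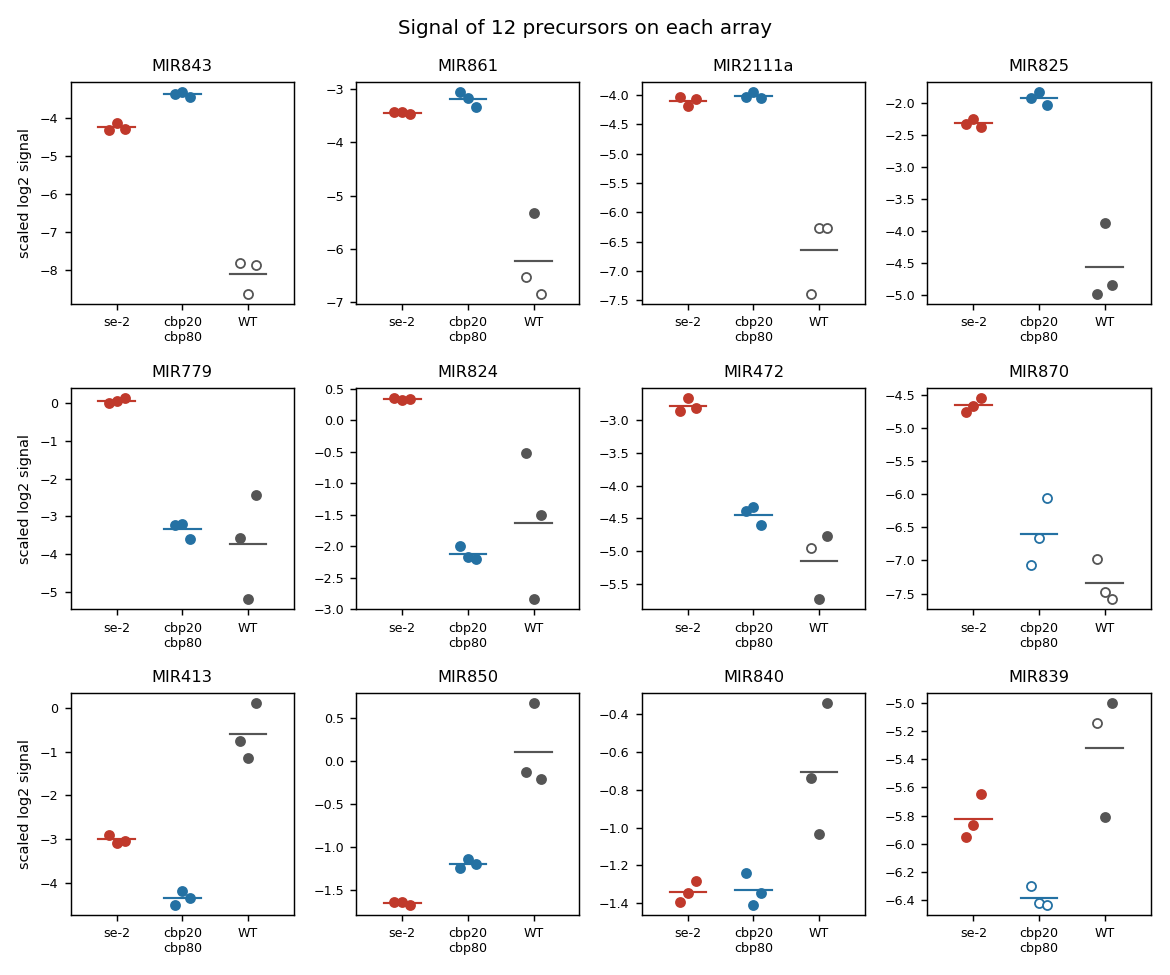
Scaled log2 signal of 12 precursors on each of the 9 arrays, with se-2, cbp20 cbp80 and WT from left to right in each panel and each panel on its own scale. Points are arrays, open where the array was not well above background, and lines are means. The upper row shows precursors higher in both mutants, the middle row precursors higher in se-2 alone by their calls, and the lower row precursors called lower in a mutant.

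MIR413, MIR850, MIR846, MIR840 and MIR839 were called lower in a mutant. MIR413, an early computational prediction, had -2.90, -3.08 and -3.05 in se-2, -4.51, -4.20 and -4.36 in cbp20 cbp80, and -0.74, -1.14 and 0.11 in WT. It was detected on all 9 arrays, and both mutants lay below every WT array, with cbp20 cbp80 the lowest. The fall was -2.42 ± 0.30, or 5.36-fold, in se-2 and -3.76 ± 0.30, or 13.6-fold, in cbp20 cbp80. Its slide-block p was 0.0746 in se-2 and 0.0146 in cbp20 cbp80.

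MIR850 and MIR863 lie within the same noncoding locus, AT4G13495, and the miRNA of MIR863 is known to target SERRATE transcripts in infected plants. MIR850 had -1.64, -1.64 and -1.67 in se-2, -1.24, -1.14 and -1.19 in cbp20 cbp80, and -0.13, 0.67 and -0.21 in WT. The genotypes did not overlap. The fall was -1.76 ± 0.23, or 3.39-fold, in se-2 and -1.30 ± 0.23, or 2.46-fold, in cbp20 cbp80, and its second probe gave -1.64 ± 0.26 and -1.14 ± 0.26. The slide-block p of the first probe was 0.0465 in se-2 and 0.153 in cbp20 cbp80. MIR863 had -2.90, -2.94 and -2.88 in se-2, -2.58, -2.54 and -2.35 in cbp20 cbp80, and -2.71, -1.65 and -2.89 in WT, and both mutants overlapped WT. Its values were -0.49 ± 0.30 in se-2 and -0.07 ± 0.30 in cbp20 cbp80, neither of which passed. The second probe of MIR863 was lower in both, at -0.57 ± 0.19 in se-2 and -0.60 ± 0.19 in cbp20 cbp80 (adjusted p 0.0423 and 0.0369 by limma).

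MIR840, whose miRNA targets WHY3 transcripts, had -1.39, -1.34 and -1.28 in se-2, -1.24, -1.41 and -1.35 in cbp20 cbp80, and -0.74, -1.03 and -0.34 in WT. The mutants lay below every WT array and overlapped each other. The change was -0.63 ± 0.19 in se-2 and -0.63 ± 0.19 in cbp20 cbp80, with adjusted p values by limma of 0.0281 and 0.0300. Leaving out any 1 of the arrays of the mutant ended either call (adjusted p 0.0634 to 0.101 by limma), and with the percentile over all probes the value in se-2 was 0.32, of the other sign. These values are from the brightest probe of MIR840. Its other probes, also detected on every array, did not pass. The second stood at -0.17 in se-2 and -0.24 in cbp20 cbp80, and the third at -0.25 and -0.20. MIR839, whose hairpin DCL4 is known to cut, was lower in cbp20 cbp80. It had -5.95, -5.87 and -5.65 in se-2, -6.30, -6.42 and -6.43 in cbp20 cbp80, and -5.14, -5.81 and -5.00 in WT, and no cbp20 cbp80 array detected it. With undetected arrays counted as for the bounds, it was 1.68-fold lower in cbp20 cbp80 (adjusted p 0.00637 by limma, slide-block p 0.424). That fold is no bound, as WT replicate 1 did not detect MIR839 either. In se-2 it stood at -0.50 ± 0.22 and passed without WT replicate 2, at -0.75 (adjusted p 0.00314 by limma).

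MIR846 was called in opposite directions by probe. Its gene neighbours MIR842, with which it is known to share an alternatively spliced transcript, and both miRNAs target jacalin-like lectin genes. The brightest probe of MIR846 had -2.50, -2.24 and -2.37 in se-2, -1.40, -1.34 and -1.23 in cbp20 cbp80, and -1.44, -1.07 and -1.07 in WT, and changed by -1.17 ± 0.16 in se-2 (adjusted p 0.000715 by limma, slide-block p 0.273). The second probe had -4.76, -4.71 and -4.80 in se-2, -6.93, -7.57 and -7.48 in cbp20 cbp80, and -6.99, -8.62 and -7.82 in WT, and was detected in se-2 alone. The third probe had -5.22, -5.58 and -5.52 in se-2, -8.16, -8.37 and -7.99 in cbp20 cbp80, and -7.53, -5.90 and -7.95 in WT. On both of these probes every se-2 array lay above every other array, and both passed by limma in se-2 with adjusted p values of 0.000402 and 0.0211. Both passed the filter through se-2 alone, so these calls are no support for a rise. With undetected arrays counted as for the bounds, they stood at 1.24 and 0.39 in se-2 against WT. Their mean processed signals were 7.48 and 5.30, against 116.8 for the brightest probe. With the mean of the probes in place of the brightest, MIR846 stood at 1.19 in se-2. The place of the probes in the transcript was not analysed here, and MIR842 was detected on 1 se-2 array alone.

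**Figure D4:**
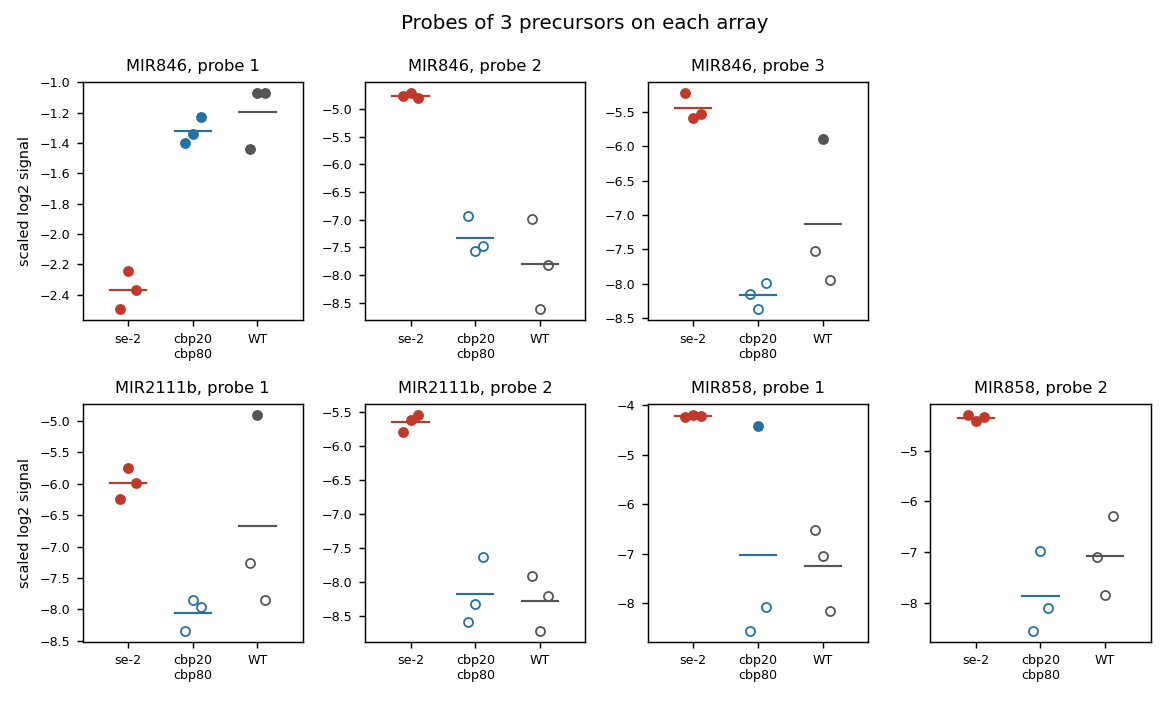
Scaled log2 signal on each array for the 3 probes of MIR846, the 2 probes of MIR2111b and the 2 probes of MIR858, with probe 1 the brightest and each panel on its own scale. Points are arrays, open where not well above background, and lines are means. Probe 1 of MIR846 is lowest in se-2, probes 2 and 3 are highest there, and WT replicate 2 on probe 1 of MIR2111b and cbp20 cbp80 replicate 2 on probe 1 of MIR858 stand apart from their second probes.

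Over the members with several probes, the probes mostly pointed the same way. Of 30 precursors with at least 2 tested probes, the signs of all probes were the same in 25 for se-2 against WT, in 22 for cbp20 cbp80 against WT and in 21 between the mutants. Calls in opposite directions occurred for 1 precursor, MIR846, in se-2 against WT and between the mutants, and for 0 in cbp20 cbp80 against WT. Counted by probe, of 81 tested, se-2 had 38 higher and 8 lower, while cbp20 cbp80 had 21 higher and 9 lower. Over all 3103 probes tested the shares were 20.0% higher and 20.9% lower in se-2, and 24.1% higher and 16.3% lower in cbp20 cbp80. Many of the 81 probes were short of 3 WT arrays and were tested through the mutants alone, so their higher calls are no support for a rise. Probes of 1 precursor are also not independent. MIR404 is an example where a dimmer probe passed: its second probe was lower by -1.37 ± 0.24 in se-2 and -1.43 ± 0.24 in cbp20 cbp80, while the brightest gave 0.48 ± 0.67 and 0.90 ± 0.67, with WT arrays at 0.043, 2.22 and -0.96.

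The 16 tested precursors that passed in neither mutant were MIR402, MIR404, MIR415, MIR447a, MIR447b, MIR775, MIR822, MIR833, MIR834, MIR841, MIR848, MIR860, MIR862, MIR863, MIR2111b and MIR2112. For several of them the 95% interval was narrow. MIR834 had 0.76, 0.74 and 0.76 in se-2, 0.89, 0.82 and 0.88 in cbp20 cbp80, and 1.10, 1.08 and 1.08 in WT. Its interval ran between -0.62 and -0.05 in se-2 and between -0.51 and 0.06 in cbp20 cbp80. The intervals in se-2 ran between -0.39 and 0.48 for MIR848 and between -0.18 and 0.59 for MIR833. For MIR415, another early computational prediction, the interval ran between -0.61 and -0.02 in se-2. A p that misses the threshold does not show that these precursors had the same level. Leaving out 1 WT array took the brightest probe of MIR834 past it in se-2, at adjusted p values by limma of 0.0168 to 0.0410. The other probes of MIR834, also detected on every array, had the other sign and did not pass. The second stood at 0.29 in se-2 and 0.38 in cbp20 cbp80, and the third at 0.31 and 0.38.

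Other members of this group had wide intervals, as WT varied. MIR822, whose hairpin DCL4 cuts and whose miRNA targets DC1-domain protein genes, had -1.16, -1.32 and -1.23 in se-2, -1.59, -1.54 and -1.70 in cbp20 cbp80, and -1.56, -0.83 and 0.27 in WT. The se-2 arrays lay within the range of WT, and 2 of the 3 cbp20 cbp80 arrays lay below it. Its changes were -0.53 ± 0.39 in se-2 and -0.90 ± 0.39 in cbp20 cbp80, and without WT replicate 1 it passed in both (-0.96 and -1.33, adjusted p 0.0379 and 0.0118 by limma). The other probes of MIR822 had the other sign and did not pass. The second stood at 0.17 in se-2 and 0.12 in cbp20 cbp80, and the third at 0.35 and 0.06. Of the 3 precursors known to be cut by DCL4, MIR869 was thus higher in both mutants, MIR839 lower in cbp20 cbp80 and MIR822 called in neither.

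The MIR447 genes give rise to a miRNA that targets a 2-phosphoglycerate kinase gene. MIR447a had -5.11, -5.18 and -5.20 in se-2, -5.21, -5.02 and -5.20 in cbp20 cbp80, and -4.84, -5.06 and -4.34 in WT, and MIR447b had -4.97, -5.28 and -5.23 in se-2, -5.56, -4.74 and -4.89 in cbp20 cbp80, and -4.58, -4.91 and -5.04 in WT. MIR447c was detected on no array. Neither MIR447a (-0.41 ± 0.20 in se-2, -0.40 ± 0.20 in cbp20 cbp80) nor MIR447b (-0.32 ± 0.24 and -0.22 ± 0.24) passed. Second probes of both were detected on 2 WT arrays and on no cbp20 cbp80 array. With undetected arrays counted as for the bounds, they were 1.81-fold lower in cbp20 cbp80 for MIR447a and 2.29-fold lower for MIR447b. These folds are no bounds, as WT replicate 1 did not detect either probe. The adjusted p values by limma were 0.00421 and 0.00612. As these genes are related copies, their probes may share transcripts.

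The mutants were compared with each other on the 6 arrays of their shared slide, where slide and genotype are not mixed. Of the 39 tested precursors, 14 were higher in se-2 than in cbp20 cbp80, 11 were lower and 14 did not pass, against 11.6% higher and 37.0% lower over the 1666 transcripts tested. All 39 were detected on all 3 se-2 arrays, and 32 on all 3 cbp20 cbp80 arrays. MIR839, MIR870 and MIR2111b, among the 14 higher ones, passed the filter through se-2 alone. Their place in this count is therefore no support for a higher level in se-2. The median difference was 0.027, against -0.21 over all transcripts. The split moved with the scaling: 20 were higher and 7 lower with quantile normalization, 24 and 3 with the percentile over all probes, 20 and 6 in the deposited table of the authors and 5 and 28 with normexp. The median over all probes tested was 0.063, 0.20, 0.086 and -0.43 in these, against -0.16 in the main fit. Among the 24 detected on all 9 arrays, 10 were higher in se-2 and 6 lower, against 13.7% and 43.9% of the 927 transcripts. Of the 87 other precursors 63 were higher in se-2, 6 were lower and 18 did not pass, with a median of 0.62. The same fit over all 9 arrays, which takes in the spread of WT, left 5 higher and 2 lower among the young precursors.

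Higher in se-2 were MIR779, MIR824, MIR2111b, MIR870, MIR472, MIR413, MIR402, MIR839, MIR822, MIR844, MIR2112, MIR848, MIR823 and MIR775. MIR779 was higher by 3.41 ± 0.12, or 10.6-fold (adjusted p 2.76e-05 by limma), and MIR824 by 2.47 ± 0.07, or 5.53-fold (8.98e-06). The 3 probes of MIR824 gave differences of 2.47, 2.35 and 2.08. MIR472 was higher by 1.66 ± 0.10, or 3.15-fold, and MIR870 at least 2.65-fold. MIR413, lower than WT in both mutants, was higher in se-2 than in cbp20 cbp80 by 1.34 ± 0.10. With normexp MIR402, MIR823, MIR839, MIR844, MIR848, MIR870, MIR2111b and MIR2112 had a negative difference (-0.47 to -0.075), while MIR779, MIR824, MIR472, MIR413, MIR822 and MIR775 had a positive one.

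MIR2111b, the second gene of its family on the array, had -6.25, -5.75 and -5.98 in se-2, -8.34, -7.85 and -7.96 in cbp20 cbp80, and -7.26, -4.91 and -7.85 in WT. No cbp20 cbp80 array detected it, and the se-2 arrays lay above all of them, at least 1.05-fold higher (adjusted p 0.000567 by limma). Against WT it passed in neither mutant, with the second WT array the highest of all 9 and the only one of WT that detected it. Its second probe lacked that high value, with -7.92, -8.73 and -8.21 in WT, where no array detected it, and the rise of that probe in se-2 was at least 1.27-fold. MIR2111a was thus called higher in both mutants. MIR2111b passed the filter through se-2 alone, so its call between the mutants is no support for a higher level in se-2. With normexp its difference between the mutants was -0.41, of the other sign. The miRNA of MIR402 targets DML3, a DNA demethylase gene. MIR402 had -4.39, -4.15 and -4.19 in se-2, -5.04, -5.32 and -5.11 in cbp20 cbp80, and -5.01, -6.16 and -4.43 in WT, and was higher in se-2 than in cbp20 cbp80 by 0.91 ± 0.10.

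Lower in se-2 than in cbp20 cbp80 were MIR773, MIR846, MIR843, MIR852, MIR841, MIR849, MIR850, MIR404, MIR863, MIR825 and MIR861. The difference of MIR773 was -2.39 ± 0.45 (adjusted p 0.00784 by limma), that of MIR843 -0.87 ± 0.07 (0.000421) and that of MIR852 -0.69 ± 0.08 (0.00147). MIR841, which overlaps the histone H2A gene HTA4, had -3.43, -3.48 and -3.32 in se-2, -2.88, -2.86 and -3.03 in cbp20 cbp80, and -3.20, -2.28 and -2.88 in WT, and differed by -0.48 ± 0.07. The direction of MIR861 and MIR846 depended on a setting: MIR861 stood at 0.099 with the percentile over all probes, and MIR846 at 1.42 with the mean of its probes. Of the 10 precursors higher in both mutants, MIR825, MIR861, MIR843, MIR773, MIR849 and MIR852 were thus lower in se-2 than in cbp20 cbp80, MIR844 and MIR823 were higher, and MIR2111a and MIR869 did not pass. The differences of MIR861, MIR823, MIR775 and MIR848 were the smallest of those called, at -0.25, 0.18, 0.18 and 0.22, and each of these calls ended without 1 or another of 4 or 5 of the 6 arrays (adjusted p 0.0651 to 0.117 by limma).

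**Figure D5:**
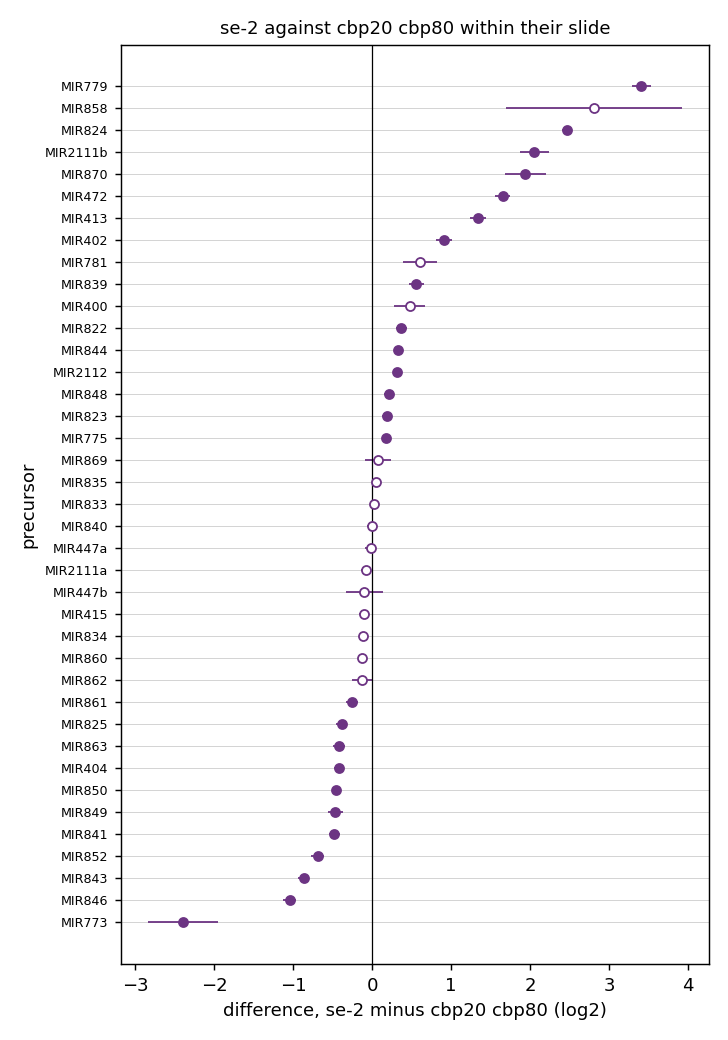
Difference (log2) between se-2 and cbp20 cbp80 for the 39 tested precursors, from the 6 arrays of the shared slide, with the standard error of limma's fit as bars. Filled points passed an adjusted p of 0.05, and open points did not. MIR779, at 3.41, is the farthest to the right of those that passed, and MIR773, at -2.39, the farthest to the left.

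Many young MIR genes lie inside or beside other genes, and the gene table of the reference (assembly TAIR10.1) placed 73 of the 74, all except MIR783. Of these, 29 overlapped a protein-coding locus and 44 did not. Among the 20 tested precursors that overlapped one, 8 were higher in se-2, 2 lower and 10 did not pass, and in cbp20 cbp80 3 were higher, 2 lower and 15 did not pass. Among the 19 that overlapped none, 10 were higher in se-2, 2 lower and 7 did not pass, and in cbp20 cbp80 7 were higher, 2 lower and 10 did not pass. The difference between these groups was not tested. Overlap was counted on either strand. MIR400, MIR402, MIR413, MIR472, MIR781, MIR823, MIR824, MIR835, MIR840, MIR841, MIR844, MIR852 and MIR862 are among those that overlap a protein-coding locus. For every precursor that overlaps one, its signal and that of the overlapping gene cannot be told apart here.

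Of the genes that act on these precursors, the array named DCL1 alone among 10 miRNA biogenesis genes. DCL1 stood at 0.38 ± 0.14 in se-2 and -0.33 ± 0.14 in cbp20 cbp80 against WT, with adjusted p values by limma of 0.0681 and 0.106, and was higher in se-2 than in cbp20 cbp80 by 0.71 ± 0.04. Of 13 genes of small RNA silencing 8 were on the array. In se-2 2 of them were higher, AGO2 by 1.63 ± 0.23 and DRB4, the partner of DCL4, by 0.49 ± 0.13, and 6 did not pass. In cbp20 cbp80 DRB4 was higher by 0.39 ± 0.13, DCL3 was lower at -0.44 ± 0.15 and 6 did not pass. The slide-block p of these calls was 0.0885 to 0.653. Between the mutants AGO2, DCL3, RDR2 and NRPD1 were higher in se-2 than in cbp20 cbp80, and 4 did not pass. DCL4 stood at -0.01 ± 0.13 in se-2 and -0.14 ± 0.13 in cbp20 cbp80. The array named none of 16 targets of young miRNAs, AGL16, CMT3 and DML3 among them, so target transcripts were not analysed here.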

How the data were processed

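Total RNA of 9 seedling samples was hybridised to one-colour arrays, 1 per sample. The deposited scanner files of the authors hold an intensity per probe. The software was Feature Extraction, version 10.5.1.1 on 2 WT arrays and 10.7.3.1 on the third and all mutant arrays, per the file headers. The processed signal is background-subtracted and not normalized between arrays. A table of log2 values, also deposited by the authors, followed the processed signal in rank (rank correlation 0.988 to 1, column medians 0.322 to 0.323). How it was scaled and centred is not given in the sources used here, and it was used as an alternative.

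Control spots (536 per array) and outlier spots (0 to 39) were left out, and 0 were saturated. Scaled log2 signals of 3103 probes (3040 for the mutants against each other), with 23 values missing, were fitted with limma 3.58.1 in R 4.3.3 (lmFit, eBayes), 1 mean per genotype. All 9 arrays entered the fits against WT, and the 6 mutant arrays the other. Tests were two-sided with Benjamini-Hochberg adjustment over all probes tested. The slide-block p comes from the same fit with the slide in duplicateCorrelation (consensus 0.948). A fold against a genotype that detected a precursor on no array is a bound if the other genotype detected it on all 3 arrays. On simulated data with each genotype's own spread, the main fit recovered the sign and size of the added changes but made more false calls than its threshold allows, above all against WT. Of its calls 33.7% were false in se-2 against WT and 11% in se-2 against cbp20 cbp80. The fit with a spread for each genotype (arrayWeights), added after the data were seen, made fewer but still more than allowed, at 13% and 8.78%. Figures were drawn with matplotlib 3.10.9.

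The members, lists and tests were chosen with earlier results of these data known. Values per array are given for the called members with the 12 largest changes in each mutant, the 6 in each direction between the mutants, those against the majority, and MIR447, MIR472, MIR822, MIR824, MIR839, MIR850 and MIR863. MIR404, MIR415, MIR833, MIR834, MIR848, MIR402 and the second probes were added after their values were seen. The replicate numbers did not pair the samples: deviations from the group means of arrays with the same number correlated between -0.048 and 0.030 across probes. The normexp alternative (offset 50) used the median signal. Sequences were not used here.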

Additional observations from a re-analysis of the deposited data

Results flagged for a closer look

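The changes of MIR824 from WT had opposite signs in se-2 and cbp20 cbp80 (1.97 and -0.50), and the difference between the mutants passed, at 2.47 (adjusted p 8.98e-06 by limma), with all 3 se-2 arrays above all 3 cbp20 cbp80 arrays. MIR2111b had changes of 0.68 in se-2 and -1.38 in cbp20 cbp80, with a difference between the mutants of 2.05 (adjusted p 0.000567 by limma), a fitted value and no measured size, as no cbp20 cbp80 array and only WT replicate 2 detected it. MIR848 had changes of 0.04 in se-2 and -0.17 in cbp20 cbp80, with a difference of 0.22 (adjusted p 0.0382 by limma). That of MIR848 no longer passed without se-2 replicate 2 or 3 or cbp20 cbp80 replicate 1 or 3, at 0.18 to 0.21 (adjusted p 0.0908 to 0.107 by limma). None of these 3 precursors passed in cbp20 cbp80 against WT, and MIR824 alone passed in se-2 against WT.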

How the results depend on the processing

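Counts of called young precursors, of 39 tested, were recomputed under the alternatives, and the cause of each shift was not tested. In se-2 against WT the main counts were 18 higher and 4 lower. Fewer were higher with normexp (2), the slide block (5) and a filter on detection on all 9 arrays (6, of 24 tested). The lower count was 7 with median scaling, 2 with the percentile over all probes, 24 with normexp, 20 with no filter, 7 with the stricter filter and 1 with the slide block. In cbp20 cbp80 against WT (10 higher and 4 lower) the higher count was 19 with the percentile over all probes, 1 with normexp, 4 with the stricter filter and 4 with the slide block, and the lower count was 8 with median scaling, 1 with the percentile over all probes, 7 with normexp, 1 with the slide block and 2 with a spread for each genotype (chosen after seeing the data). Between se-2 and cbp20 cbp80 (14 higher and 11 lower) the higher count was 24 with the percentile over all probes, 5 with normexp and 5 with all 9 arrays in the fit, and the lower count was 7 with quantile normalization, 3 with the percentile over all probes, 28 with normexp, 6 in the deposited table, 28 with no filter and 2 with all 9 arrays. Leaving out 1 array gave 12 to 18 higher and 3 to 9 lower in se-2 against WT (9 without WT replicate 2, 7 without WT replicate 1), 10 to 13 and 3 to 8 in cbp20 cbp80 against WT (8 without WT replicate 2), and 11 to 14 and 10 to 11 between the mutants. With the replicate number as a block, 15 were higher and 4 lower in se-2, 10 and 4 in cbp20 cbp80, and 11 and 10 between the mutants, though the numbers did not pair the samples.

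Values changed sign as follows. With normexp in se-2 against WT, they were -0.76 for MIR400, -0.61 for MIR402, -0.82 for MIR773, -0.71 for MIR781, -0.072 for MIR823, -0.56 for MIR833, -0.072 for MIR835, -0.38 for MIR843, -0.61 for MIR848, -0.52 for MIR849, -0.73 for MIR852, -0.34 for MIR858, -0.27 for MIR861, -0.90 for MIR862, -0.74 for MIR869, -0.51 for MIR870, -0.45 for MIR2111a and -0.90 for MIR2111b. With normexp in cbp20 cbp80 against WT, they were -0.03 for MIR849, -0.16 for MIR852, -0.41 for MIR862, -0.24 for MIR869 and -0.017 for MIR2111a. With normexp between the mutants, they were -0.43 for MIR400, -0.22 for MIR402, -0.37 for MIR781, -0.16 for MIR823, -0.30 for MIR833, -0.47 for MIR839, -0.075 for MIR844, -0.20 for MIR848, -0.50 for MIR869, -0.19 for MIR870, -0.41 for MIR2111b and -0.15 for MIR2112. With the percentile over all probes, they were 0.63 for MIR415, 0.54 for MIR447a, 0.62 for MIR834 and 0.32 for MIR840 in se-2 against WT, and 0.47 for MIR846 in cbp20 cbp80 against WT. Between the mutants that scaling gave 0.24 for MIR415, 0.34 for MIR447a, 0.24 for MIR834, 0.34 for MIR840, 0.099 for MIR861 and 0.27 for MIR2111a. With the mean of the probes, MIR846 stood at 1.19 in se-2 against WT and 1.42 between the mutants, and MIR447b at 0.42 between the mutants. Between the mutants MIR447a and MIR2111a stood at 0.35 and 0.23 with quantile normalization and at 0.37 and 0.25 in the deposited table. Of values called in neither the main fit nor the alternative, 19 of 256 changed sign in se-2 against WT, 42 of 400 in cbp20 cbp80 against WT and 30 of 192 between the mutants. Against a genotype with no array that detected a precursor, a fold is a bound.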
